A study of Mus musculus with 4 samples.

Results

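A group of 9 genes of the insulin-like growth factor (IGF) axis was followed through the cells of the embryonic mouse nose: the ligand gene Igf1, the receptor genes Igf1r and Igf2r, the binding protein genes Igfbp2, Igfbp3, Igfbp4 and Igfbp5, and the related genes Igfbp7 and Igfbpl1. They were found by symbol and are 9 of the 32285 measured features. They were described in 13739 of 15863 cell barcodes, those in which 500 genes or more were seen and no more than 10% of molecules were mitochondrial. The members were chosen by differences between mutant and control libraries and levels by cell type that had already been measured here, first of all a difference of Igfbp5 in cells of the vessel wall. That difference is therefore given as a description, and the levels by cell type are given without a test.

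IGF1 and IGF2 are secreted growth factors that signal through the tyrosine kinase receptor encoded by Igf1r. The receptor encoded by Igf2r binds IGF2 and carries it to lysosomes, which lowers the free ligand, and it also sorts lysosomal enzymes. The IGF binding proteins hold the ligands in the extracellular fluid and matrix, where proteases release them, and in the craniofacial mesenchyme the system is known for its part in growth of cartilage and bone.

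The libraries were made from whole noses at embryonic day 14.5 with 10x Genomics droplet sequencing of transcript 3′ ends, with 2 control and 2 mutant libraries. The mutants carried the transgene Tg(Sox10-cre)1Wdr with floxed Yap and Taz. The series design gives them as Sox10cre;yap flox/WT;taz flox/flox, so 1 Yap allele stayed wild type by design. For the controls the sources conflict: the sample labels name C57Bl/6J, and the series design names yap flox/flox;taz flox/flox without Cre. Sox10 drives Cre in the neural crest and its glia, so a mutant nose also holds cells that never expressed Cre, and which cells had recombined is not shown by these data. Nothing in the labels says how many embryos a library pools, so p-values measure the spread between these libraries only.

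The targeted genes were examined first. Levels are given as CPM, the UMIs (unique molecular identifiers, each marking 1 captured molecule) of a gene per 1000000 UMIs of the same cells. Over all cells Yap1 stood at 65.0 and 65.2 CPM (control 1 and control 2) against 56.4 and 55.96 CPM (mutant 1 and mutant 2), with a log2 change of -0.25 ± 0.08 (SE, edgeR adjusted p = 0.909). Wwtr1, the gene for TAZ, stood at 118 and 145 CPM (controls) against 123 and 132 CPM (mutants), so the groups overlapped. Reads of transcript 3′ ends can lie outside the deleted exons, and then they do not check the labels. Sox10 itself was at 0 to 8.42 CPM in mural-like cells, the class in which Igfbp5 differed most. That level does not show whether these cells or their precursors had expressed Cre earlier.

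Kept cells numbered 4075, 2474, 2995 and 4195 in control 1, control 2, mutant 1 and mutant 2, with 19767873 to 35331450 UMIs per library and median depths of 5282 to 8549 UMIs per cell. Pairs of libraries shared 3 to 5 barcodes among kept cells. Cells were gated by detected marker genes into classes, written as "like" because no annotation by the authors was used. The gate named 116 glia-like, 401 simple epithelium-like, 784 keratinocyte-like, 410 chondrocyte-like, 378 osteoblast-like, 233 endothelial-like, 207 mural-like, 280 macrophage-like and 9952 mesenchyme-like cells. Smaller classes were 96 neuronal lineage-like and 67 skeletal muscle-like cells, which had under 20 cells in a library and were not tested, and 797 cells stayed without a class. Mural means pericytes and vascular smooth muscle, the cells that wrap vessels. Chondrocyte-like, osteoblast-like and mural-like cells also held many mesenchyme markers (a median of 6.5, 7 and 6 detected of 11), and 23.9%, 27.0% and 23.2% of them sat at the lowest number of markers the gate allowed.

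**Figure D1:**
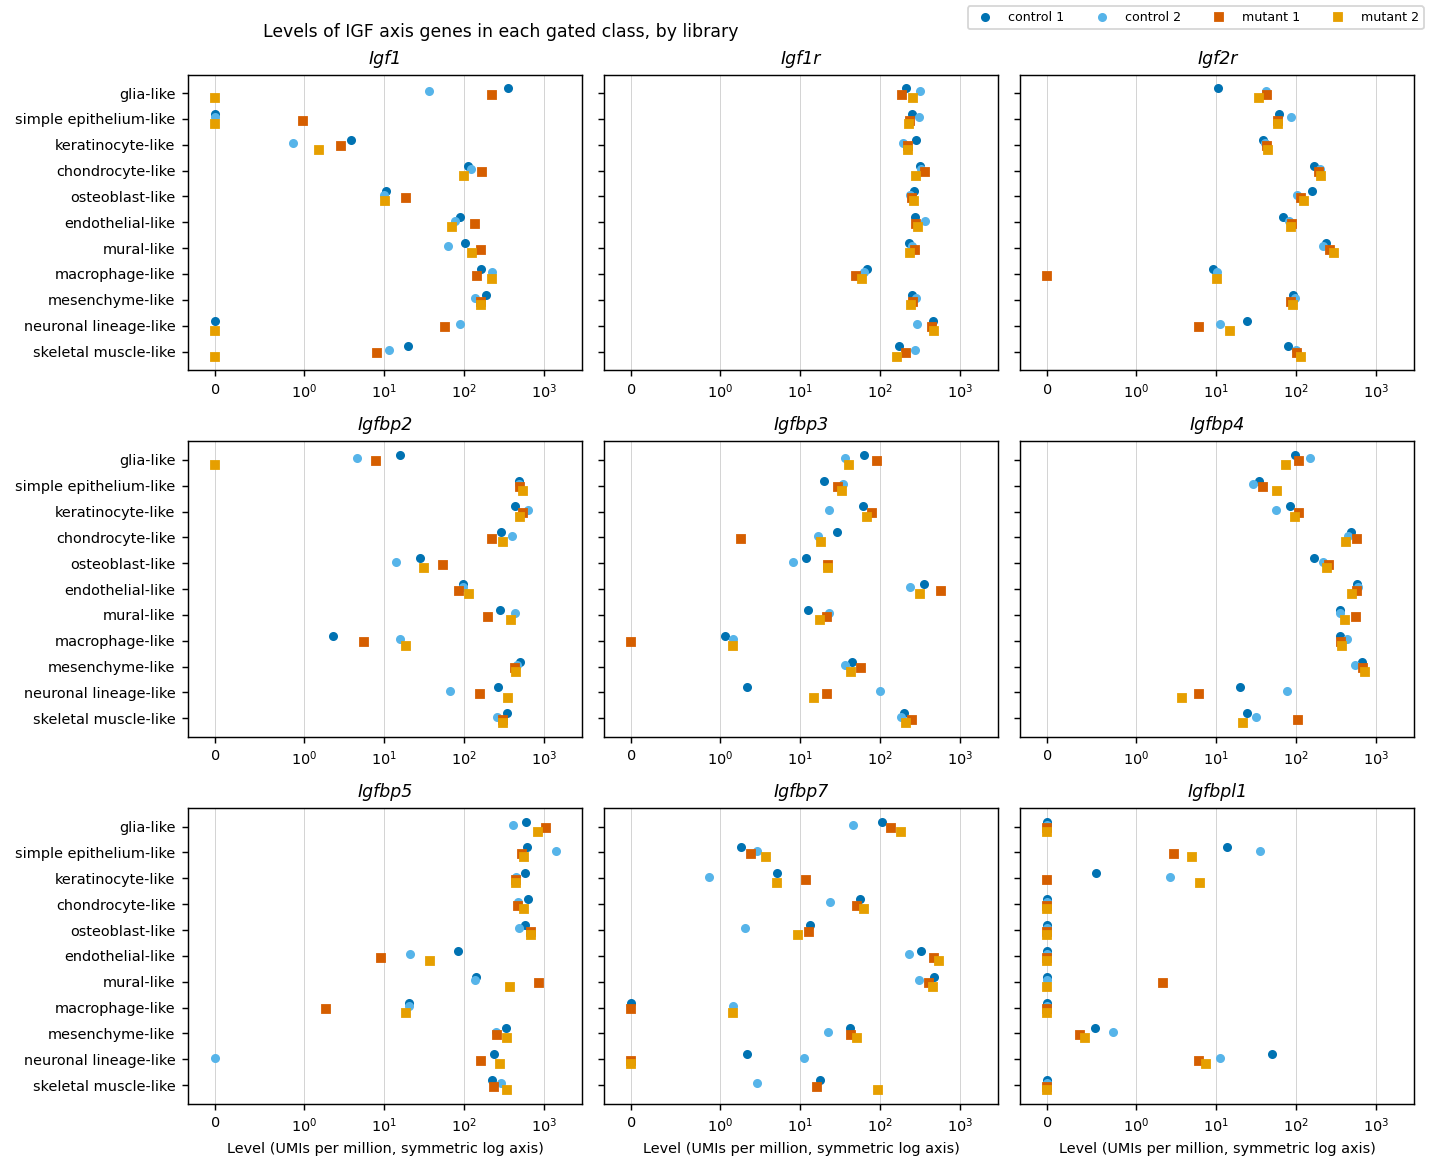
Level of each of the 9 genes (x axis, CPM on a symmetric log axis) in 11 gated classes (y axis), with 1 point per library (circles control, squares mutant). Igf1r lay between 165 and 476 CPM in all 11 classes but macrophage-like cells, Igfbp3 was highest in endothelial-like cells, and Igfbp5 in mural-like cells was at 376 and 876 CPM in the mutants and at 139 and 143 CPM in the controls.

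Igf1, the ligand gene, had its highest mean level in macrophage-like cells, at 164, 227, 146 and 225 CPM in control 1, control 2, mutant 1 and mutant 2. Mesenchyme-like cells followed with 188, 138, 166 and 162 CPM, and the ranges of these classes overlapped. Chondrocyte-like, mural-like and endothelial-like cells had means of 127 ± 30 (SD, n = 4), 114 ± 42 and 94.3 ± 31 CPM, with overlapping ranges too. A clear step lay below them: osteoblast-like cells were at 10.2 to 18.9 CPM, a range that did not touch the 71.2 to 139 CPM of endothelial-like cells. In epithelium Igf1 was nearly absent from the counts, with 2 UMIs in 401 simple epithelium-like cells. In macrophage-like cells, 53.8%, 60.9%, 40.4% and 43.8% of cells had an Igf1 UMI, and after thinning each cell to 2000 UMIs the shares were 35.9%, 33.9%, 16.3% and 24.1%. Glia-like cells spread the most, with 355, 37.0, 225 and 0 CPM, and are taken up again below by cell kind.

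Igf1r, the signalling receptor gene, was the most even of the 9. Its class means ran from 322 ± 34 CPM (SD, n = 4) in chondrocyte-like cells through 303 ± 42 in endothelial-like to 229 ± 36 in keratinocyte-like cells, and each of these 8 classes overlapped its neighbour in the order. Macrophage-like cells stood below all of them at 68.3, 63.0, 50.6 and 59.8 CPM. Of the 9 larger classes, the one with the highest mean of Igf1 thus had the lowest of Igf1r. In the few neuronal lineage-like cells Igf1r was at 455, 289, 448 and 476 CPM.

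Igf2r, the receptor that clears IGF2, ordered the classes of the skeleton and vessel wall more sharply. Mural-like cells had the highest level, at 236, 217, 269 and 296 CPM. Chondrocyte-like cells came next with 168, 200, 191 and 202 CPM, then osteoblast-like cells with 159, 102, 116 and 125 CPM, and each of these ranges was clear of the next. Mesenchyme-like cells were at 86.2 to 96.0 CPM and keratinocyte-like cells at 38.3 to 44.1 CPM, and macrophage-like cells at 0 to 10.3 CPM.

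Igfbp2 encodes a binding protein abundant in fetal tissue. It was highest in keratinocyte-like cells (436, 630, 550 and 501 CPM), simple epithelium-like cells (489, 486, 502 and 541 CPM) and mesenchyme-like cells (496, 459, 436 and 447 CPM), whose ranges overlapped. Osteoblast-like cells had 28.1, 14.3, 55.5 and 31.8 CPM, while chondrocyte-like cells, the other skeletal class, had 288, 403, 224 and 307 CPM. Glia-like cells, at 0 to 15.8 CPM, and macrophage-like cells, at 2.32 to 18.9 CPM, were lowest.

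Igfbp3, whose protein is the main carrier of IGFs in adult serum, was an endothelial gene in these cells. It stood at 350, 239, 574 and 320 CPM in endothelial-like cells, and the next of the 9 larger classes, glia-like cells, reached 91.1 CPM at most. The 67 skeletal muscle-like cells, outside that order, had 198, 185, 248 and 208 CPM. Mural-like cells, which lie against the endothelium, had only 12.7 to 23.2 CPM.

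Igfbp4, a binding protein cut by the protease PAPP-A, was the gene of connective tissue, vessels and macrophages. It was highest in mesenchyme-like cells (665, 548, 686 and 726 CPM), with endothelial-like cells at 577, 585, 578 and 504 CPM. Macrophage-like cells held 352, 429, 362 and 373 CPM, although they had 10.3 CPM or less of Igfbp3, Igfbp7 and Igf2r. Epithelium was low, with 29.1 to 57.9 CPM in simple epithelium-like and 56.3 to 109 CPM in keratinocyte-like cells.

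Igfbp5, whose protein binds extracellular matrix and is known from bone and muscle, lies next to Igfbp2 on chromosome 1. On GRCm38, Igfbp2 spans 72824503 to 72852474 on the plus strand and Igfbp5 spans 72857932 to 72874884 on the minus strand, so their 3′ ends face each other across 5.457 kb. Their patterns over classes differed: osteoblast-like cells, among the lowest for Igfbp2, had the third highest mean of Igfbp5, at 578, 491, 691 and 681 CPM. Glia-like cells, lowest for Igfbp2, had 592, 407, 1072 and 853 CPM of Igfbp5, and simple epithelium-like cells had 608, 1423, 529 and 570 CPM. Endothelial-like (9.33 to 85.5 CPM) and macrophage-like cells (1.88 to 20.8 CPM) were lowest. The promoters of this neighbouring pair, from RefSeq on GRCm38.p6 and read 5′ to 3′ on the strand of each gene, are shown because Igfbp5 carries the difference described further on while for Igfbp2 beside it the groups overlapped in the same class.
Igfbp2, chr1:72824230-72824479, plus strand: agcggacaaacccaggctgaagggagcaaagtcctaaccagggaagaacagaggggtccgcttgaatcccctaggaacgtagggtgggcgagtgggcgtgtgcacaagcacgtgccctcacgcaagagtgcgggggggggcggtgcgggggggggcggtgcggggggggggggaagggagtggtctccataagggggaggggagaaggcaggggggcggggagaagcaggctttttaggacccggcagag
Igfbp5, chr1:72874885-72875115, minus strand: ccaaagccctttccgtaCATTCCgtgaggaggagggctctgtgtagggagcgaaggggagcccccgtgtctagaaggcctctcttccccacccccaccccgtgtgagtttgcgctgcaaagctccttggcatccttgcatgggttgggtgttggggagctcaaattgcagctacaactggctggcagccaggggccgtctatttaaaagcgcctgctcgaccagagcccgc
Capitals mark the letters GGAATG on the opposite strand, the core recognised by TEAD factors, the DNA-binding partners of YAP and TAZ. They begin 233 bases before the RefSeq start of Igfbp5. These letters, on either strand, occur in the 250 bases before the start in 12.6% of 32851 promoters, and in 1 of 9 promoters of the members (8 members had an entry). Igfbp2 has a second promoter entry, chr1:72825137-72825386, which is not printed here. A match is a description of the letters only.

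Igfbp7 encodes a secreted protein of vessel basement membranes that binds IGFs weakly. It was the vessel gene of the list, at 470, 307, 408 and 459 CPM in mural-like and 324, 231, 478 and 541 CPM in endothelial-like cells. Glia-like cells had 105, 46.2, 137 and 186 CPM, and the other 6 tested classes were at 63.1 CPM or less in every library. Igfbpl1, a gene of developing neural tissue, was rare: 202, 154, 19 and 32 UMIs in the 4 libraries, and 0 UMIs in glia-like, chondrocyte-like, osteoblast-like, endothelial-like and macrophage-like cells.

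Within the 9952 mesenchyme-like cells the genes varied by region. Cells were compared with and without a UMI of a regional gene (a transcription factor gene, or Crabp1 or Itgbl1). This was done in each library, and the ratio of levels was averaged over the 4 libraries. Mesenchyme-like cells with Pou3f4 had less of 6 of the genes in 4 of 4 libraries: the mean ratio was 0.25 for Igfbp5, 0.36 for Igfbp7, 0.49 for Igfbp3, 0.50 for Igfbp2, 0.62 for Igf2r and 0.64 for Igfbp4. Igf1r did not follow, with a ratio of 1.01. Some of these ratios rest on few counts. In cells with Pou3f4 the lowest count in a library was 4 UMIs for Igfbp7, 7 for Igfbp3 and 22 for Igfbp5. The Igfbp7 ratios ran from 0.25 to 0.60. In counts, Igfbp5 was at 101, 43.0, 77.4 and 98.1 CPM in cells with Pou3f4 and 355, 258, 280 and 364 CPM in cells without it.

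Cells with Zic1 had 994, 1012, 963 and 874 CPM of Igfbp2 against 443, 339, 408 and 415 CPM in cells without it, a mean ratio of 2.42. Igfbp7 went the other way in the same cells, with a ratio of 0.47. Cells with Pax9, a gene of the palate and facial skeleton, had more Igfbp7 (ratio 2.16) and Igfbp3 (1.74) in all 4 libraries, and cells with Foxl2 had more Igf1 (1.53). Igfbp5 was higher in cells with Foxc1 in all 4 libraries, but unevenly, with ratios from 1.08 to 2.85 around a mean of 1.69. In cells with Zic1 both mutants were above both controls for Igfbp5, at 256 and 217 CPM (controls) against 591 and 475 CPM (mutants). Cells without Zic1 had 348 and 257 against 238 and 337 CPM. That gene and subset are picked from many, and a difference by genotype was not tested. Over all mesenchyme-like cells 25.8% of all genes had both mutants above both controls, and that share was not taken within the subset. The groups of cells with a regional gene overlap and rest on detection, which depends on depth, so the ratios describe these libraries and were not tested.

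**Figure D2:**
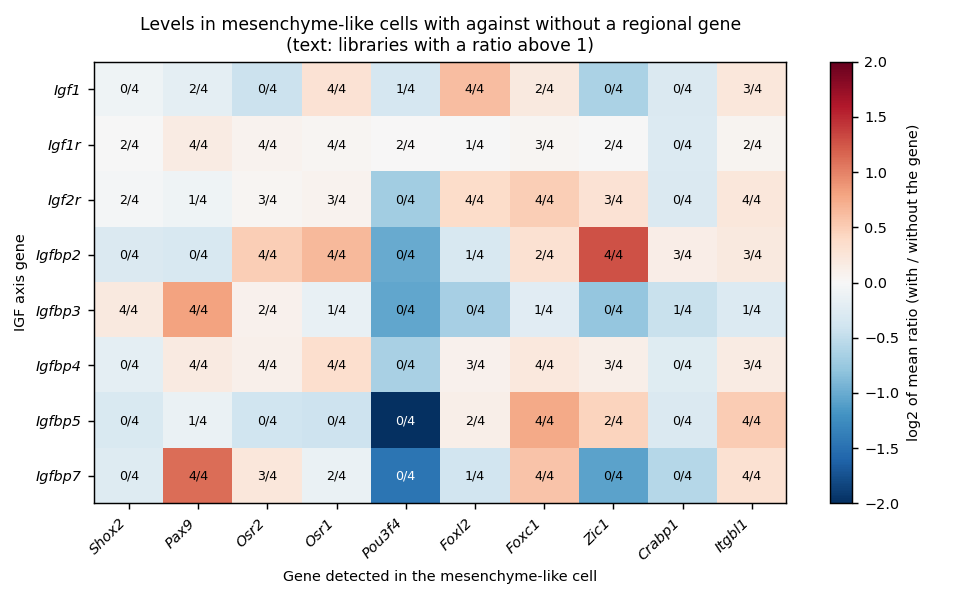
Mean ratio over 4 libraries (colour, log2 scale) of the level of 8 of the genes (y axis, Igfbpl1 left out as too low) in mesenchyme-like cells with against without a UMI of a regional gene (x axis), with the number of libraries above 1 written in each cell. Pou3f4 holds the lowest ratio (0.25 for Igfbp5) and Zic1 holds the highest ratio (2.42 for Igfbp2).

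Glia of the nose are of 2 kinds, olfactory ensheathing cells along the olfactory nerve and Schwann cells along other nerves. Glia-like cells were split by which of 2 marker lists, drawn up after the values were seen, had more detected genes: ensheathing (Npy, Frzb, Prss56, Vtn, Hes5, Fmo1) or Schwann (Gfra3, Cryab, Dkk2, Egfl8, Tfap2b). Igf1 lay with the ensheathing genes, at 807 CPM (16 cells), 276 CPM (3 cells) and 654 CPM (10 cells) in control 1, control 2 and mutant 1, and at 0 in the 2 such cells of mutant 2. These cells held 135 of 135, 8 of 8 and 76 of 84 Igf1 UMIs of the glia-like cells of the first 3 libraries. All 71 cells with more Schwann genes, from all 4 libraries, held 0 Igf1 UMIs, which allows a share of cells with a UMI of up to 4.23%. Igfbp5 and Igfbp7 had the opposite pattern. Cells with more Schwann genes had 958, 481, 1938 and 984 CPM of Igfbp5 against 293, 207, 112 and 140 CPM in cells with more ensheathing genes. For Igfbp7 the values were 192, 59.3, 208 and 186 CPM against 5.98, 0, 8.61 and 0 CPM. The spread of Igf1 over glia-like cells thus moved with the number of cells of the ensheathing kind. The level within those cells was also lower where they were few, at 276 CPM in 3 cells and 0 in 2 cells. In whole-class sums fewer such cells and less Igf1 per cell cannot be told apart.

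**Figure D3:**
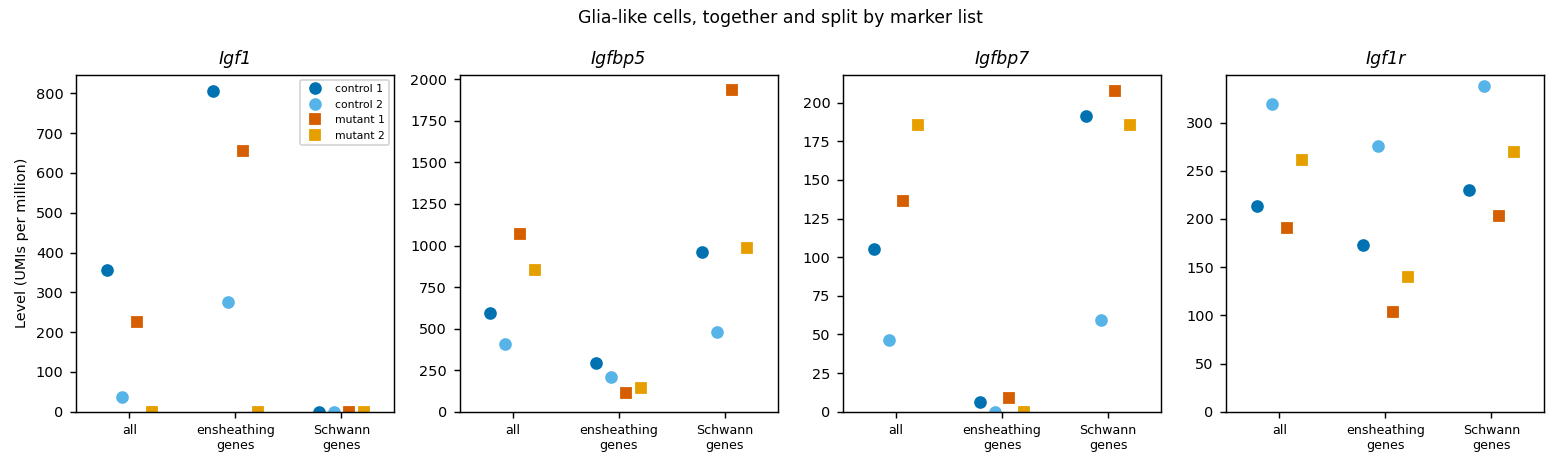
Levels (y axis, CPM) of Igf1, Igfbp5, Igfbp7 and Igf1r in all glia-like cells and in those with more ensheathing or more Schwann genes, with 1 point per library. Igf1 is at 0 in the Schwann group of every library and at 276 to 807 CPM in the ensheathing group of all libraries but mutant 2, which has 2 such cells and 0 CPM.

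Endothelial-like cells were split the same way into those with more arterial genes (Gja4, Gja5, Cxcr4, Sox17, Hey1, Efnb2, Unc5b) and those with more lymphatic genes (Prox1, Lyve1, Reln, Ccl21a, Flt4, Pdpn, Mmrn1). Igfbp3 stood at 491, 506, 840 and 472 CPM with arterial genes and 115, 21.8, 117 and 126 CPM with lymphatic genes. Igfbp4 ran from 525 to 614 CPM in the first and from 448 to 733 CPM in the second. In cells with more arterial genes Igfbp7 was at 514, 420, 476 and 595 CPM, so the groups overlapped.

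Between mutant and control libraries, 1 of 66 tested pairs of gene and class passed the edgeR adjusted threshold of 0.05, against 0.109% of all gene and class pairs. That pair was Igfbp5 in mural-like cells, the difference known when the list was drawn up. At an unadjusted p under 0.05 stood 12 of the 66 pairs, against 5.91% of all pairs. Both mutant libraries lay above both controls in 20 of the pairs and below them in 9, where all genes had 20.4% above and 16.1% below. The members were chosen with differences between these libraries known, so nothing is read from how these counts stand to the shares of all genes. Members at an unadjusted edgeR p under 0.05 numbered 2 in glia-like, 2 in simple epithelium-like, 1 in keratinocyte-like, 2 in osteoblast-like, 2 in endothelial-like, 3 in mural-like and 0 in chondrocyte-like, macrophage-like and mesenchyme-like cells, and the DESeq2 Wald test passed 0 in each of these classes. Igfbp4 was above in 5 of 9 classes and below in none, Igfbp7 above in 4 of 7 and below in none, and Igfbp5 above in 3 and below in 3 of 9.

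**Figure D4:**
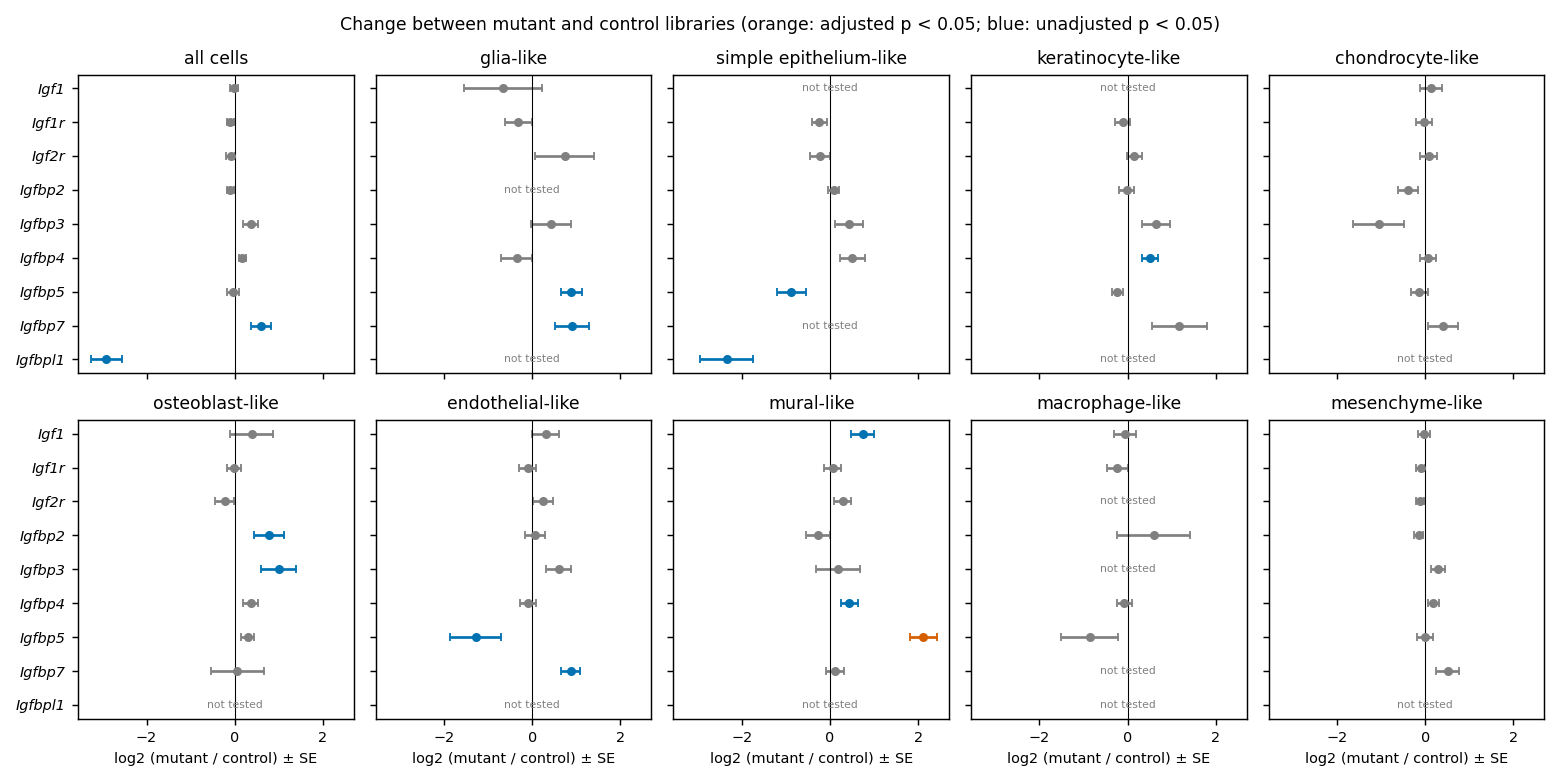
The log2 ratio of mutant to control (x axis, point with SE, 2 against 2 libraries) of each gene (y axis) over all cells and in 9 classes, where orange marks an adjusted p under 0.05 and blue an unadjusted p under 0.05. The orange point is Igfbp5 in mural-like cells at 2.12.

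In mural-like cells Igfbp5 had 143 and 139 CPM (controls) against 876 and 376 CPM (mutants). Both mutant libraries were above both controls, by 2.12 ± 0.30 on the log2 scale (SE, 2 against 2 libraries), or 4.33-fold. It was among the 78 of 7340 genes (1.06%) that passed in this class, and since this contrast led to the list, nothing is read from that. More cells carried the transcript: 27.3% (exact 95% binomial interval 17.0 to 39.6) and 20.5% (9.80 to 35.3) of control cells had a UMI, against 69.2% (52.4 to 83.0) and 62.1% (48.4 to 74.5) of mutant cells. Thinned to 2000 UMIs the shares were 13.6% and 15.9% against 52.6% and 34.5%. In macrophage-like cells, the class taken as background for the gene, 2.13% to 6.25% of cells had a UMI at median depths of 7520 to 10396 UMIs, against 8787 to 10096 in mural-like cells.

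The mural-like cells of the groups were not of the same makeup. The summed level of 4 smooth muscle genes was 1877 and 1001 CPM (controls) against 2881 and 2899 CPM (mutants), and 1 of the 4 was at 0 in control 1. That of 5 pericyte genes was 1357 and 1146 against 775 and 896 CPM, with none at 0. Among these 5 genes only Vtn had both mutants below both controls, with 309 and 470 CPM (controls) against 30.6 and 25.1 CPM (mutants). For Kcnj8, Higd1b and Ndufa4l2 the groups overlapped. Abcc9 was higher in both mutants, at 297.4 and 259.1 CPM (controls) against 314.6 and 328.1 CPM (mutants). The lower sum of this list in the mutants thus rested on Vtn. Of the mural gate markers outside both lists, Rgs5 had 976 and 1007 CPM (controls) against 784 and 552 CPM (mutants). Mcam also had both mutants below both controls, at 178 and 158 against 140 and 129 CPM, while Notch3 and Cspg4 overlapped. Whether pericytes were fewer in the mutants was not tested. The 11 mesenchyme markers summed to 6479 and 8946 against 8165 and 8285 CPM, with overlapping groups, and mesenchyme-like cells themselves had 250 to 347 CPM of Igfbp5. Igfbp5 was therefore also read within kinds of mural-like cell. In cells with more pericyte genes (45, 30, 17 and 29 cells) it read 109 and 107 CPM (controls) against 628 and 618 CPM (mutants). Vtn is 1 of the genes that sort these cells. With Vtn not counted in the split, the cells with more pericyte genes (42, 26, 16 and 27 cells) held 110 and 124 CPM against 501 and 609 CPM. Vtn stayed among the 12 markers of the mural gate, as did Acta2, Tagln and Myh11, which were higher in both mutants. Entry to the class can therefore move with genotype too, and this was not tested. The part of the makeup in the class difference was not tested beyond these values. In the 10, 9, 10 and 17 cells with more smooth muscle genes the values were 307 and 211 against 776 and 181 CPM, and the groups overlapped.

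Splitting by Vtn itself, cells with a Vtn UMI (31, 28, 6 and 8 cells) held 15.0 and 72.7 CPM of Igfbp5 (controls, from 4 and 21 UMIs) against 990 and 841 CPM (mutants, from 60 and 49 UMIs). Cells without a Vtn UMI held 221 and 242 CPM against 858 and 322 CPM. That split was chosen after the values were seen, and Vtn itself differed between the groups, so which cells fall on each side moves with genotype and nothing is read from it. The call did not hold with the DESeq2 Wald test (adjusted p = 0.129, log2 change 2.11). Without mutant 1 the log2 change was 1.37, and with a stricter gate 2.88.

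**Figure D5:**
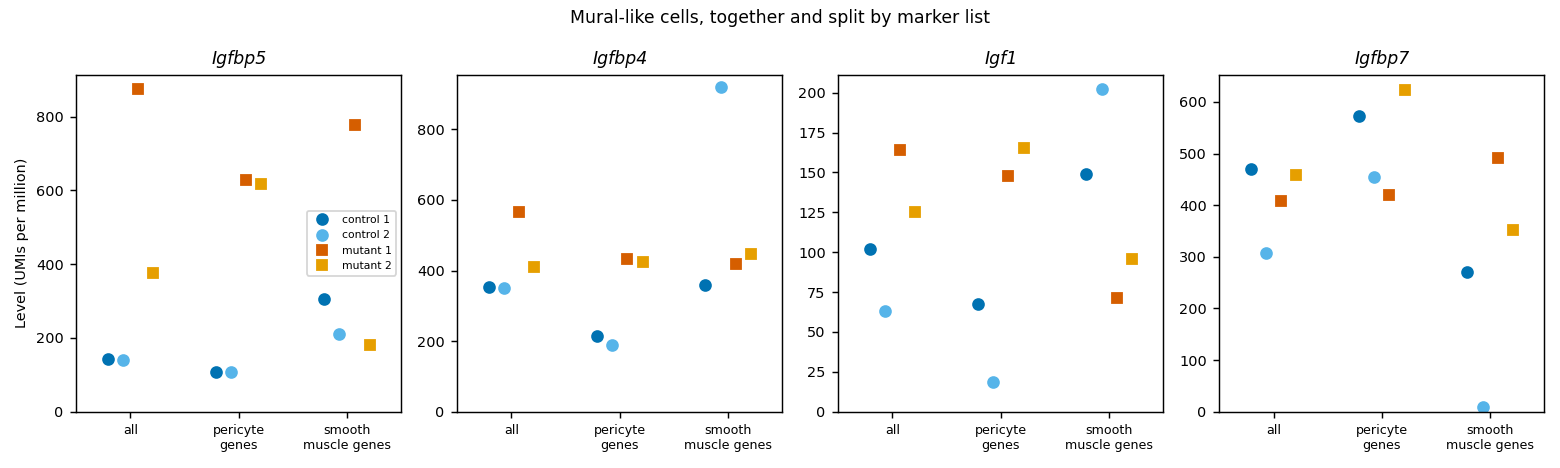
Levels (y axis, CPM) of Igfbp5, Igfbp4, Igf1 and Igfbp7 in all mural-like cells and in those with more pericyte or more smooth muscle genes, with 1 point per library. In the pericyte group Igfbp5 is at 109 and 107 CPM (controls) against 628 and 618 CPM (mutants), whereas the groups overlap for the smooth muscle group.

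The other 7 tested genes in mural-like cells did not pass. Of all 8, 4 had both mutants above both controls and 0 below (21.8% and 17.8% of all genes). Igf1 had 102 and 63.2 CPM (controls) against 164 and 125 CPM (mutants; log2 change 0.74 ± 0.27, SE, edgeR adjusted p = 0.304), and without control 1 its adjusted p was 0.0256. Igfbp4 had 353 and 352 against 566 and 409 CPM (0.44 ± 0.19, edgeR adjusted p = 0.437). In the cells with more pericyte genes, 6 of the 8, Igfbp5 included, had both mutants above both controls and 1 had both below, where 21.2% and 17.8% of all genes tested in the class did. The members share these few cells, and no test was made within them. Igfbp4 there had 213 and 189 CPM (controls) against 431 and 423 CPM (mutants), and Igf1 had 67.5 and 18.9 against 147 and 165 CPM. Igf1r had 187 and 180 against 268 and 254 CPM, Igf2r 220 and 249.1 against 322 and 356 CPM, and Igfbp2, the 1 below, 157 and 170 against 104 and 123 CPM. In cells with more smooth muscle genes Igf1 was lower in both mutants, at 149 and 202 against 71.4 and 95.9 CPM, on 8 to 22 UMIs a library. Over all mural-like cells Igfbp2, the neighbour of Igfbp5, overlapped between groups at 280 and 434 against 201 and 389 CPM, as did Igfbp7, Igf1r and Igfbp3.

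In endothelial-like cells 0 of 8 tested genes passed with edgeR (0.055% of all genes did), and 2 had both mutants above and 0 both below (17.7% and 18.6% of all genes). Igfbp7 came nearest, with 324 and 231 CPM (controls) against 478 and 541 CPM (mutants; log2 change 0.87 ± 0.21, SE, edgeR adjusted p = 0.271), and its adjusted p was 0.00142 without control 1. In cells with more lymphatic genes it had 91.1 and 58.0 CPM (12 and 9 cells) against 469 and 537 CPM (3 and 19 cells). The lymphatic list itself summed to 803 and 2076 CPM (controls) against 172 and 325 CPM (mutants), with 0, 1, 2 and 1 of its 7 genes at 0, and the part of that makeup in the class difference was not tested. A set of 5 genes typical of brain endothelium summed to 314 and 429 against 104 and 156 CPM, and 11 mesenchyme markers to 408 and 86.1 against 901 and 1612 CPM. Igfbp5 had 85.5 and 21.5 against 9.33 and 37.7 CPM with overlapping groups (log2 change -1.28 ± 0.58, edgeR adjusted p = 0.736), and without control 1 the log2 change was 0.19. Without control 2 or without mutant 2 that gene passed, with adjusted p-values of 0.0345 and 1.03e-05.

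In glia-like cells 0 of 7 tested genes passed with edgeR (0% of all genes did), and 2 had both mutants above and 0 both below (21% and 13.9% of all genes). Igfbp5 had 592 and 407 against 1072 and 853 CPM (log2 change 0.88 ± 0.24, SE, edgeR adjusted p = 0.997), and Igfbp7 at 105 and 46.2 against 137 and 186 CPM (0.90 ± 0.38, adjusted p = 0.997). Within cells with more Schwann genes both mutants were above both controls for Igfbp5, but control 1 (958 CPM) and mutant 2 (984 CPM) lay close together, and for Igfbp7 the groups overlapped. In the few cells with more ensheathing genes both mutants were instead below both controls for Igfbp5, with 293 and 207 CPM (controls) against 112 and 140 CPM (mutants). Igf1 over glia-like cells was 1.90 higher on the log2 scale without control 1 and -1.38 without control 2, each past the adjusted threshold (edgeR 0.00794 and 0.00684), so its sign turned on the control left out. Without control 1 Igfbp5 and Igfbp7 passed as well, with edgeR adjusted p-values of 0.00431 and 0.0204.

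In simple epithelium-like cells 0 of 7 tested genes passed with edgeR (0% of all genes did), 2 had both mutants above and 4 both below (18.4% and 16% of all genes), and control 2, with 23 cells, stood apart. Igfbp5 had 608 and 1423 CPM (controls) against 529 and 570 CPM (mutants; log2 change -0.88 ± 0.33, SE, edgeR adjusted p = 1.00), and without control 2 the change was -0.15. Without control 1 it was -1.37 with an edgeR adjusted p of 3.41e-27, where the lone control is assumed to vary like the other libraries. The 10 keratinocyte markers summed to 423 and 862 against 380 and 685 CPM in this class, and their part in the difference was not tested. Igfbpl1 in the same class came to 30, 12, 6 and 8 UMIs, or 13.9 and 34.9 against 2.98 and 5.04 CPM (-2.34 ± 0.60, adjusted p = 1.00), and 0.00402 without control 1. These sums include 4 of the 31 cells with neural genes described further on. Without those 4 cells Igfbpl1 in the class came to 12, 1, 5 and 8 UMIs, or 5.58 and 3.22 against 2.49 and 5.04 CPM, and the groups overlapped.

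In osteoblast-like cells, where 0.0113% of all genes passed with edgeR and 0 of 8 members did, 4 members had both mutants above and 0 both below (21.2% and 13% of all genes). Igfbp3 there had 11.8 and 8.16 against 22.4 and 22.4 CPM (log2 change 1.00 ± 0.39, SE, edgeR adjusted p = 1.00). Igfbp2 in that class had 28.1 and 14.3 against 55.5 and 31.8 CPM (0.78 ± 0.34, adjusted p = 1.00), and its log2 change was 1.89 with doublets left out, 1.51 without control 1 and 0.38 without mutant 1. The others of the 4 were Igfbp4, with 169 and 214 against 260 and 240 CPM, and Igfbp5, with 578 and 491 against 691 and 681 CPM. In keratinocyte-like cells (0.0447% of all genes passed, 0 of 7 members; 4 above and 1 below, against 19.3% and 18.2% of all genes) Igfbp4 had 83.2 and 56.3 against 109 and 97.2 CPM (0.51 ± 0.18, adjusted p = 0.762), and without control 1 Igfbp3 passed (edgeR adjusted p = 0.00694). Chondrocyte-like cells had 0 of 8 members past the edgeR threshold (0% of all genes passed) and 0 with groups that did not overlap (18.2% of all genes above, 14.7% below). Macrophage-like cells had 0 of 5 past it (0.0136% of all genes), 0 above and 2 below (16.8% and 18.4%). Among mesenchyme-like cells 0 of 8 passed (0.0188% of all genes), and 2 lay above and 2 below (25.8% and 14.8%), with Igfbp7 at 42.1 and 22.2 against 43.1 and 51.9 CPM and past the threshold only without control 1 among the libraries left out (edgeR adjusted p = 4.71e-05).

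Over all cells 0 of the 9 genes passed with edgeR and 2 had an unadjusted p under 0.05 (0% of all genes passed), and 3 had both mutants above and 3 both below (24.9% and 13% of all genes). Igfbp7 had 50.9 and 31.8 CPM (controls) against 56.8 and 72.6 CPM (mutants; log2 change 0.60 ± 0.23, adjusted p = 0.909), and 0.0459 without control 1. Igfbpl1 had the widest gap of the 9, with 5.72 and 7.79 CPM (controls) against 0.652 and 1.19 CPM (mutants; log2 change -2.91 ± 0.36, edgeR adjusted p = 0.513). Its call differed by test, with an adjusted p of 1.58e-07 by the DESeq2 Wald test and 0.0175 by edgeR without control 1.

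Few cells held most of Igfbpl1. A set of 31 cells with at least 4 of 9 neural genes (Rmst, Sox2ot, Rfx4, Wnt8b, Wnt3a, Lmx1a, Fgf17, Adgrv1, Rspo2; a list drawn up after the values were seen) fell into control 1 (11), control 2 (16) and mutant 1 (4), with 0 of 4195 cells in mutant 2, which allows a share of up to 0.0715%. Igfbpl1 had a UMI in 74.2% of them and in 0.474% of other cells. They held 145 of 202 and 102 of 154 Igfbpl1 UMIs in the controls and 1 of 19 and 0 of 32 in the mutants. Ttr, a transcript of the choroid plexus, was at 22354 CPM in these 31 cells and 6.55 CPM in all others, and Col1a2, a fibroblast collagen, at 34.4 against 1597 CPM. Only 10 of the 31 cells (32.3%) had a Ttr UMI, so the Ttr level rests on a minority of them and does not name the set. Without them Igfbpl1 was at 1.62 and 2.65 against 0.619 and 1.19 CPM, with a log2 change of -1.26 (edgeR adjusted p = 0.905).

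The rest of the pathway was read from 31 genes, listed by role as ligands, carriers, receptors, proteases and signalling genes. Of 179 tested pairs of gene and class, 1 passed upward and 0 downward, against 0.109% of all pairs, and 13 had an unadjusted p under 0.05. That was Igf2bp2, which encodes an RNA-binding protein of Igf2 and other transcripts, in mural-like cells. It had 45.3 and 48.4 CPM (controls) against 142 and 109 CPM (mutants; log2 change 1.39 ± 0.27, SE, edgeR adjusted p = 0.0251). The call was lost with the DESeq2 Wald test (adjusted p = 0.434), with stricter cells (0.0744) and with a stricter gate (0.0717). Grb10, an adaptor that restrains the receptors, had 54.4 and 39.6 against 9.38 and 8.75 CPM in macrophage-like cells (-2.36 ± 0.41, edgeR adjusted p = 0.285), and passed without control 1 (0.0262) or control 2 (8.89e-05). The 11 mesenchyme markers summed to 306 and 427 against 54.4 and 112 CPM in the same macrophage-like cells, mesenchyme-like cells had 501 to 568 CPM of Grb10, and the part of such RNA in the difference was not tested. Its relative Grb14 had 24.2 and 24.5 against 9.45 and 11.2 CPM in osteoblast-like cells (-1.26 ± 0.38, adjusted p = 0.922).

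Igf2, the other ligand gene, had 562, 496, 510 and 542 CPM in chondrocyte-like and 388, 666, 446 and 425 CPM in mural-like cells. Glia-like cells had 2.68 to 9.24 CPM of Igf2. Insr, the insulin receptor gene, was at 26.6 CPM or less in skeletal muscle-like cells and 69.4 to 174 CPM in endothelial-like cells. Pappa, the protease that cuts Igfbp4 protein, was at 40.8 to 63.0 CPM in mesenchyme-like cells, and Igfbp6 at 4.79 CPM at most in the same cells.

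For each gene the 3 genes with the most similar pattern over 36 points (9 classes by 4 libraries) were found among 6013 genes by Pearson's r of log2(CPM + 10), with gate markers left out. The points share libraries and depth, so r is a description. Igfbp7 lay closest to Col4a1 (r = 0.94), Col4a2 (0.94), both collagens of basement membrane, and Ets1 (0.93). Igf1r lay closest to Nedd4 (0.93), Nckap1 (0.93) and Grb10 (0.91), and Igfbp5 to Igf2bp2 (0.91), Plekha5 and Grip1 (both 0.88). Igf2r lay closest to Airn (0.93), an RNA transcribed from the opposite strand across Igf2r, and whether the counting kept such reads apart is not given in the sources used here. The nearest genes of the others were Ly6h for Igfbp2 (0.91), Shroom2 for Igfbp3 (0.90), Itm2c for Igfbp4 (0.92) and Rap1gds1 for Igf1 (0.87), and Igfbpl1 was too low to be ranked.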

How the data were processed

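A set of 4 single-cell libraries of whole noses of mouse embryos was used, 2 control and 2 mutant by their titles. The files deposited by the authors are unnormalized count matrices of UMIs. They were made with Cell Ranger 8.0.1 per the file headers, whereas the submitters' processing notes name Cell Ranger 4, Seurat 4.3.0 and mm10. Sequencing was split over providers and a further sample is mentioned, per the labels' protocols, with no map to libraries, so a batch could not be tested, and that sample was not analysed here. The members and gene lists were chosen with earlier results of these data known.

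Kept barcodes had 500 genes or more and no more than 10% mitochondrial UMIs. A cell took the class with the most detected markers, if at least 4 and 2 more than the next class. Classes other than chondrocyte, osteoblast, mural and mesenchyme also needed more of their own markers than mesenchyme markers, and mesenchyme-like cells needed 4 mesenchyme markers and no other class at 4. This rule was set after cell numbers and levels by class had been seen. Scrublet's automatic threshold marked 0 to 3 cells per library and had not worked, so doublets were kept, and an alternative left out the highest scores at 0.8% per 1000 barcodes. Sums of counts over the cells of a class, library by library, were scaled to 1000000 (CPM). The unscaled sums went into the quasi-likelihood test of edgeR 4.0.16 in R 4.3.3 (TMM scaling, genes kept by filterByExpr), adjusted by Benjamini-Hochberg over all genes of a class, where every library had at least 20 cells. Each SE is the log2 change over the square root of its F value, and a fitted change includes a small prior count. On simulated counts edgeR found 165 of 200 changed genes among 15975 in mesenchyme-like and 116 of 200 among 7340 in mural-like cells. It made 3 and 5 false calls. Those counts were drawn with the same fixed spread for every gene, so they check the procedure and do not measure its power in these libraries. Clustering was not used. Intervals and limits for a count of 0 (3 counts) cover counting error only.

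All 9 members are named. A change is printed for a member and class with an unadjusted p under 0.05, pathway genes are named when they passed or had a p under 0.01, and Igf2, Igfbp6, Insr and Pappa by level. Alternatives were DESeq2 1.42.0 (Wald test, and its size factors in edgeR), a replicate block, every gene tested without a filter on counts, each library left out, at least 1000 genes and at most 5% mitochondrial UMIs, doublets left out and 1 marker more in each gate. Splits of classes and the removal of cells with neural genes were added after seeing the data, and 1 gene of the Schwann list was dropped and is not reported here. Gene positions are those of GENCODE on GRCm38 (32158 of the 32285 features had an entry under their Ensembl identifier), and promoters are from RefSeq. In the printed Igfbp5 promoter 19 bases inside the GENCODE gene model were left out.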

Additional observations from a re-analysis of the deposited data

Results flagged for a closer look

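The direction of Igfbp5 differed between classes under the same comparison of mutant and control. Both mutant libraries were above both controls in mural-like cells (log2 change 2.12), in glia-like cells (0.88) and in osteoblast-like cells (578 and 491 against 691 and 681 CPM). Both were below both controls in simple epithelium-like cells (-0.88), in keratinocyte-like cells (581 and 453 against 444 and 444 CPM) and in macrophage-like cells (20.8 and 20.5 against 1.88 and 18.9 CPM). The difference between these classes was not tested. In simple epithelium-like cells it rested on control 2, without which the log2 change was -0.15. Over all tested pairs of gene and class, 20.4% had both mutants above and 16.1% both below. In keratinocyte-like cells control 2 lay close to the mutants. The macrophage-like values, in the class taken as background for the gene, came from 18 and 14 against 1 and 13 UMIs. In that class 11 mesenchyme markers summed to 306 and 427 against 54.4 and 112 CPM, and their part was not tested.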

How the results depend on the processing

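With each library left out, the number of the 9 genes that passed ran from 0 to 2 over all cells, 0 to 3 in glia-like, 0 to 2 in simple epithelium-like, 0 to 1 in keratinocyte-like, 0 to 1 in endothelial-like, 1 to 2 in mural-like and 0 to 1 in mesenchyme-like cells. Most added calls came without control 1, and the cause was not tested. The DESeq2 Wald test passed 1 over all cells and 0 in mural-like cells. With no filter on low counts 1 passed over all cells, 2 in simple epithelium-like, 2 in endothelial-like and 1 in mesenchyme-like cells. The log2 change of Igfbp5 in endothelial-like cells reversed to 0.19 without control 1, and ran from -2.65 to 0.19 over the libraries left out. With 1 marker more in each gate Igf2r and Igfbp7 in mural-like cells averaged 291.8 and 530.1 CPM.

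Replicate numbers are shared by the groups, but same-numbered libraries did not deviate together (correlations of -0.10 to 0.11 over genes, by class). With 2 libraries in each group, that check cannot exclude a batch shared by same-numbered libraries. With the replicate number as a block 2 members passed in endothelial-like cells and 2 in mural-like cells, and 0 in the other classes. Counts of all genes moved from 0 to 26 in chondrocyte-like, 5 to 167 in endothelial-like, 5 to 118 in keratinocyte-like, 1 to 13 in macrophage-like, 3 to 10 in mesenchyme-like, 78 to 287 in mural-like and 0 to 4 in simple epithelium-like cells.

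With no filter, the genes passing numbered 10 over all cells and, by class, 42 (chondrocyte), 227 (endothelial), 29 (glia), 197 (keratinocyte), 148 (macrophage), 582 (mesenchyme), 226 (mural), 65 (osteoblast) and 129 (simple epithelium). The DESeq2 Wald test gave 30 over all cells, 11 endothelial, 15 keratinocyte, 6 macrophage, 59 mesenchyme and 20 mural. DESeq2 size factors gave 3 keratinocyte and 0 osteoblast. Stricter cells gave 17 mural, 1 keratinocyte, 0 macrophage and 0 mesenchyme. The stricter gate gave 54 mural (within 1.5 times), 1 chondrocyte, 0 macrophage, 0 osteoblast and 2 mesenchyme, and without doublets there were 14 endothelial, 4 macrophage and 2 osteoblast. Leaving out a library gave up to 1074, in mesenchyme-like cells without control 1. Glia-like cells could not be fitted with stricter cells or the stricter gate, since a library then had under 20 cells.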
